A study of Mus musculus with 36 samples.

Results

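The mRNA levels of 34 genes for glucose uptake, glycolysis and lactate handling were read across mouse kidney progenitors made from embryonic stem cells (mESC) and isolated ex fetu. The 34 genes were picked by name from the 22761 genes listed, and each was listed once. There were 36 libraries in 9 groups of 4. Engineered ureteric buds (eUB, labelled iUB) came, by the labels, from a Sox9-mCherry-mESC line and were sorted as EpCAM+ and mCherry+, while the study's account of making its lines names a Sox8-mCherry reporter. Induced nephron progenitors (iNP, ITGA8 high and PDGFRA low) and induced stromal progenitors (iSP, ITGA8 low and PDGFRA high) came from E14 mESC, after cells with CD31, EpCAM or RET had been gated out. Ureteric bud (UB, RET+ and EpCAM+), nephron progenitors (NP) and stromal progenitors (SP), the last 2 sorted by the same gates as iNP and iSP, came from CD1 mouse kidneys at E11.5 and at E12.5. An ex-fetu sample was made from the kidneys of every embryo of 1 mouse together, and an ES-derived sample from the embryoid bodies of 1 batch of differentiation. Every ES-derived group thus differed from its ex-fetu counterpart in culture and in strain or line, and for UB also in the sorting antigens, and these differences cannot be told apart. In sorted bulk samples, fewer cells of a type and less RNA per cell cannot be told apart either.

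Glucose enters cells through transporters of the GLUT family, is trapped by hexokinase and is split and oxidised to pyruvate by the glycolytic enzymes. Pyruvate is either reduced to lactate by lactate dehydrogenase and exported by monocarboxylate transporters, or enters the mitochondria, where pyruvate dehydrogenase oxidises it unless pyruvate dehydrogenase kinases have switched that enzyme off. Many of these genes are known targets of the hypoxia-inducible factor HIF, which binds DNA at sequences with the core ACGTG or GCGTG, and nephron progenitors are known to lean on glycolysis while they self-renew.

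The libraries held 13.004 to 52.5 M reads on genes (median 27.4), with eUB replicate 1 the shallowest, so that 3 reads, taken as the limit of detection, were worth 0.0605 to 0.223 normalised CPM. Normalised CPM are read counts scaled to the size of the library and by the authors' library factors. The 6 UB markers summed to 2077 to 2267 normalised CPM in eUB and 2392 to 2503 in E11.5 UB. The 6 NP markers summed to 521 to 804 in iNP and 1345 to 1502 in E11.5 NP, and the 6 SP markers to 677 to 786 in iSP and 1047 to 1419 in E11.5 SP. In the SP groups the NP markers summed to 292 to 326 in iSP and 217 to 267 in E11.5 SP. The stromal factor Foxd1 averaged 410 normalised CPM in E11.5 SP but 15.2 in iSP. Markers of other cells also moved between the groups compared. The 5 macrophage markers summed to 41.5 to 69.3 in E11.5 UB and 0.223 to 0.429 in eUB. The 4 endothelial markers summed to 37.8 to 64.0 in iNP and 7.45 to 20.8 in E11.5 NP, to 26.4 to 41.5 in iSP and 9.68 to 28.3 in E11.5 SP, and to 9.21 to 13.6 in eUB and 3.56 to 11.03 in E11.5 UB. The 4 markers of pluripotent cells summed to 3.35 to 5.21 in iNP, 3.99 to 5.65 in iSP and 2.45 to 3.37 in eUB, against 0.284 to 1.28 in the E11.5 groups. The 6 UB markers summed to 91.6 to 122 in iNP and 34.2 to 62.9 in E11.5 NP, and to 77.2 to 87.6 in iSP and 123 to 289 in E11.5 SP. The 6 SP markers summed to 20.2 to 32.4 in eUB and 7.25 to 13.4 in E11.5 UB. The part of these cells in the results was not tested. E12.5 UB replicate 1 stood apart from the other 3 of its group: its UB markers summed to 1348 against 2031 to 2128, its NP markers to 368 against 29.9 to 41.2, its SP markers to 135 against 5.49 to 11.9, its endothelial markers to 71.8 against 2.32 to 4.94 and its markers of pluripotent cells to 15.6 against 0.628 to 0.663. In E12.5 NP and E12.5 SP, replicate 1 likewise had the lowest sum of its own group's markers (1179 and 1077). Results that rest on the E12.5 groups are therefore given with and without their replicate 1. The titles give the age of each group, but for UB another label field gives the opposite age, so every comparison with E11.5 UB or E12.5 UB rests on the titles.

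To show the regulatory sequence next to these genes, the 250 bases before their RefSeq transcription starts (GRCm38.p6) were searched for ACGTG on either strand. At least 1 window held it for 14 of the 32 members with a window (43.8%), for 18.5% of all 27025 genes with a window and for 26.5% of 8193 genes with at least 1 normalised CPM in every library. The median window of these 3 sets held 13, 6 and 17 CpG, so the sets also differed in base composition. The shares are per gene, and the members had more windows to hold a match, 51 for 32 genes (1.59 a gene) against 32851 for all genes (1.22 a gene). Per window, 18 of the 51 held ACGTG (35.3%), against 16.6% of all windows. The other core, GCGTG, was in 26 of the 51 (51%) and in 28.2% of all windows. No per-window share was computed for the genes with at least 1 normalised CPM in every library. The differences in CpG content are therefore not allowed for in these per-window shares. Printed here are 4 windows, 5′ to 3′ on the gene's strand with the matches in capitals: Hk2, Ldha and Pgk1 as members whose window held 2 or 3 matches, and Pdk1 as a member that rose in all 3 ES-derived groups and whose window held none. A window of Slc16a3 with 2 matches is not shown because 14 of its bases are exonic.
Hk2 chr6:82774455-82774704 (- strand): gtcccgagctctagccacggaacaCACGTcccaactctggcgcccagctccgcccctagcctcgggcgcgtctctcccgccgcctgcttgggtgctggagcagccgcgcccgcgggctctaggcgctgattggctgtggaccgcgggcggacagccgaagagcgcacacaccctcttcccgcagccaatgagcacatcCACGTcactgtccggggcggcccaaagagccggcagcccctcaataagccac
Ldha chr7:46845554-46845803 (+ strand): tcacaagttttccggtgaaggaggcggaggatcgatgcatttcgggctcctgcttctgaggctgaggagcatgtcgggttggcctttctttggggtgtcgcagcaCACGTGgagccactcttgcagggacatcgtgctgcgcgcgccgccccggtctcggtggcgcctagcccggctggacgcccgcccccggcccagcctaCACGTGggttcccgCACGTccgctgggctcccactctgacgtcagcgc
Pgk1 chrX:106186850-106187099 (+ strand): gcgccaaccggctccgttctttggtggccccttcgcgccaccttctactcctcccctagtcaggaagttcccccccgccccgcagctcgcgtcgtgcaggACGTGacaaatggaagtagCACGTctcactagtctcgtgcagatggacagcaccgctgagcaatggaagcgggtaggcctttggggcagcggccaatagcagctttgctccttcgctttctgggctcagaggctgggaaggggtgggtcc
Pdk1 chr2:71872974-71873223 (+ strand): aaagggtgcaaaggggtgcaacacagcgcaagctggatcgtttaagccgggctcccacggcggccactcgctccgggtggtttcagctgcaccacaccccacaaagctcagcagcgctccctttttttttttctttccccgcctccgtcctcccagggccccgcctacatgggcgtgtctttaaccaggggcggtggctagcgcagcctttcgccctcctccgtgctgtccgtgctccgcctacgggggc
The matches began 226 and 52 bases before the start of Hk2, 145, 48 and 34 bases before that of Ldha, and 150 and 131 bases before that of Pgk1. The first 2 matches of Ldha read CACGTG, which holds the motif on both strands. Of GCGTG on either strand, the Pdk1 window held 1 match and the other 3 windows held 0. The Ldha window lies in an intron of a longer annotated Ldha transcript, and the other windows overlap no annotated transcript. A match is a string of letters only, and binding was not measured.

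Most of the 34 genes were higher in ES-derived than in E11.5 ex-fetu cells. A gene is called where its adjusted p in the limma test of log2(normalised CPM + 1) over all genes is under 0.05, and n is 4 libraries a group throughout. Between eUB and E11.5 UB, 23 members were called higher and 4 lower, where 32.1% of all genes tested were called higher and 28.5% lower (60.5% in all). Between iSP and E11.5 SP, 26 were called higher and 4 lower, against 35.5% and 32.1% of all genes (67.6% in all). Between iNP and E11.5 NP, 26 were called higher and 4 lower, against 35.5% and 29.2% of all genes (64.7% in all). The median log2 difference of the members was 0.59 in eUB, 1.32 in iSP and 1.07 in iNP, and that of all genes tested was 0.025, 0.037 and 0.074. In all 3 comparisons 20 members were called higher and 1, Pdp1, was called lower, against 14.8% and 12.7% of the 12780 genes tested in all 3. Hk1, Eno2, Eno3 and Slc16a1 were called in opposite directions in different cell types, and the other 9 in 1 or 2 of the comparisons or not at all. The 3 comparisons share no library, but they are not wholly independent. iNP and iSP share the line and the differentiation protocol, which yields both cell types in the same culture. Whether samples of different cell types came from the same batch or the same mice is not given in the sources used here.

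**Figure D1:**
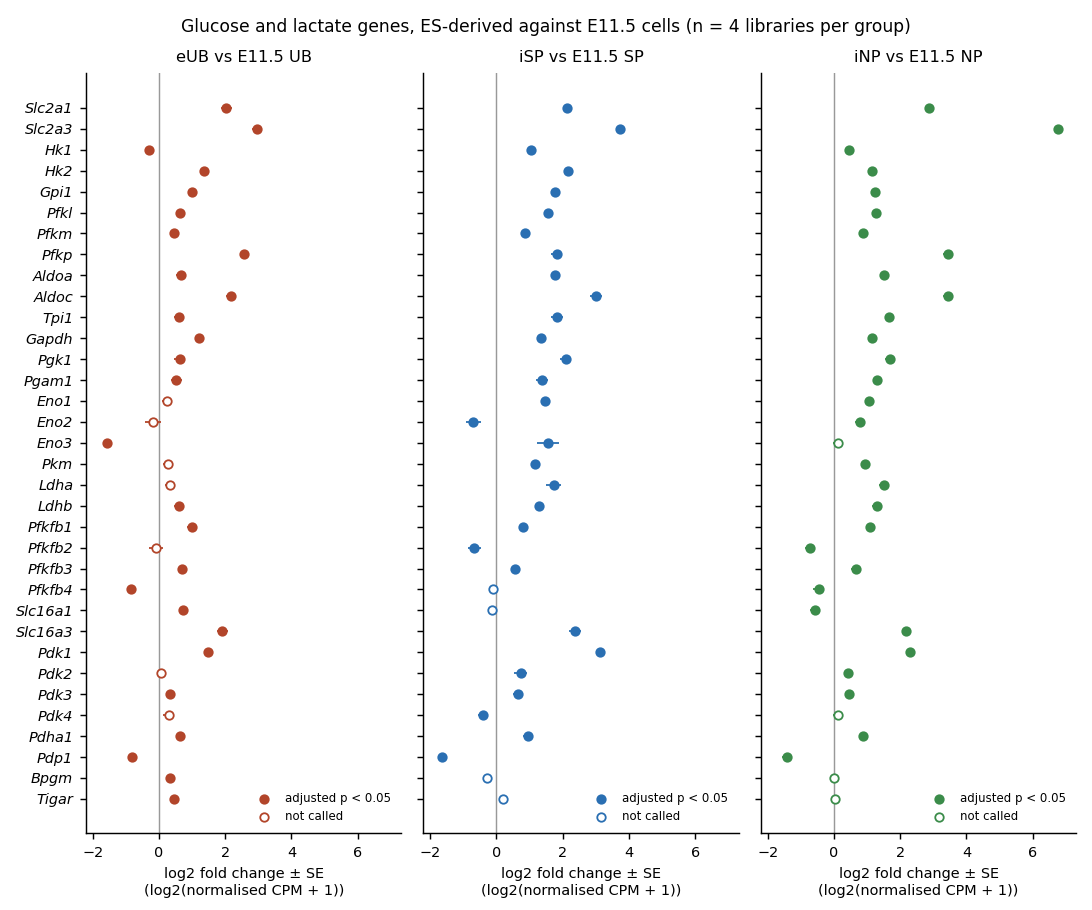
Log2 fold change (x axis, log2(normalised CPM + 1), bars are SE) of the 34 genes in eUB, iSP and iNP against E11.5 UB, SP and NP, 4 libraries a group, with filled points for adjusted p under 0.05. Slc2a3, Aldoc, Pfkp, Slc16a3 and Pdk1 lie far to the right in all 3 panels, Pdp1 lies to the left in all 3, and Eno3 lies at -1.56 in eUB and 1.56 in iSP.

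The 34 values added together made up 1.80 ± 0.367% (SD) of the eUB libraries and 1.04 ± 0.00906% of those of E11.5 UB. In iSP they made up 1.79 ± 0.164%, and in E11.5 SP 0.594 ± 0.0774%. In iNP they made up 1.93 ± 0.227%, and in E11.5 NP 0.739 ± 0.0504%. The highest sums within the ES-derived groups were those of eUB replicate 1 (22525 normalised CPM), iSP replicate 1 (20508) and iNP replicate 2 (21688). Per kilobase of exon, Aldoa, Pkm, Gapdh and Ldha were the 4 highest members in eUB, and Pdk4 the lowest.

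Slc2a1 encodes GLUT1, the transporter of most growing cells; here and for every gene after it, values are in normalised CPM and in the order of replicates 1 to 4. It measured 1406, 979, 835 and 1003 in eUB, against 277, 242, 202 and 301 in E11.5 UB. In iSP it measured 547, 419, 385 and 458, against 99.8, 101, 94.5 and 112 in E11.5 SP. In iNP it measured 583, 670.2, 564 and 554, against 86.1, 73.4, 81.1 and 76.7 in E11.5 NP. The lowest ES-derived library lay above the highest ex-fetu library in each cell type, and eUB replicate 1 was the highest of all. The log2 difference was 2.03 ± 0.17 in eUB (adjusted p = 5.73e-06), 2.13 ± 0.11 in iSP (adjusted p = 4.48e-07) and 2.88 ± 0.094 in iNP (adjusted p = 2.71e-08). Slc2a3 encodes GLUT3, a transporter of high affinity known from neurons and the early embryo. Its eUB libraries held 1267, 935, 769.7 and 1058, and those of E11.5 UB 123, 136, 117 and 135. Its iSP libraries held 366, 260.3, 251 and 273, and those of E11.5 SP 24.3, 18.4, 18.4 and 20.5. Its iNP libraries held 488, 403, 423 and 449, and those of E11.5 NP 4.13, 2.92, 2.64 and 2.701. No group overlapped its counterpart, and E11.5 NP was the lowest of these 6 groups. The difference from the E11.5 cells was 2.95 ± 0.14 in eUB (adjusted p = 1.68e-07), 3.74 ± 0.14 in iSP (adjusted p = 6.65e-08) and 6.76 ± 0.13 in iNP (adjusted p = 1.28e-09). The change in iNP was the largest of any member in these 3 comparisons. Per kilobase of exon, Slc2a3 made up 31.7 ± 1.52% (SD) of the 2 transporters in eUB and 19.7 ± 2.27% in E11.5 UB. In NP its share was 1.85 ± 0.314% at E11.5 and 26.5 ± 2.83% in iNP, and in SP 8.85 ± 1.15% and 23.5 ± 0.909% in iSP. In each pair the share was higher in the ES-derived cells.

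**Figure D2:**
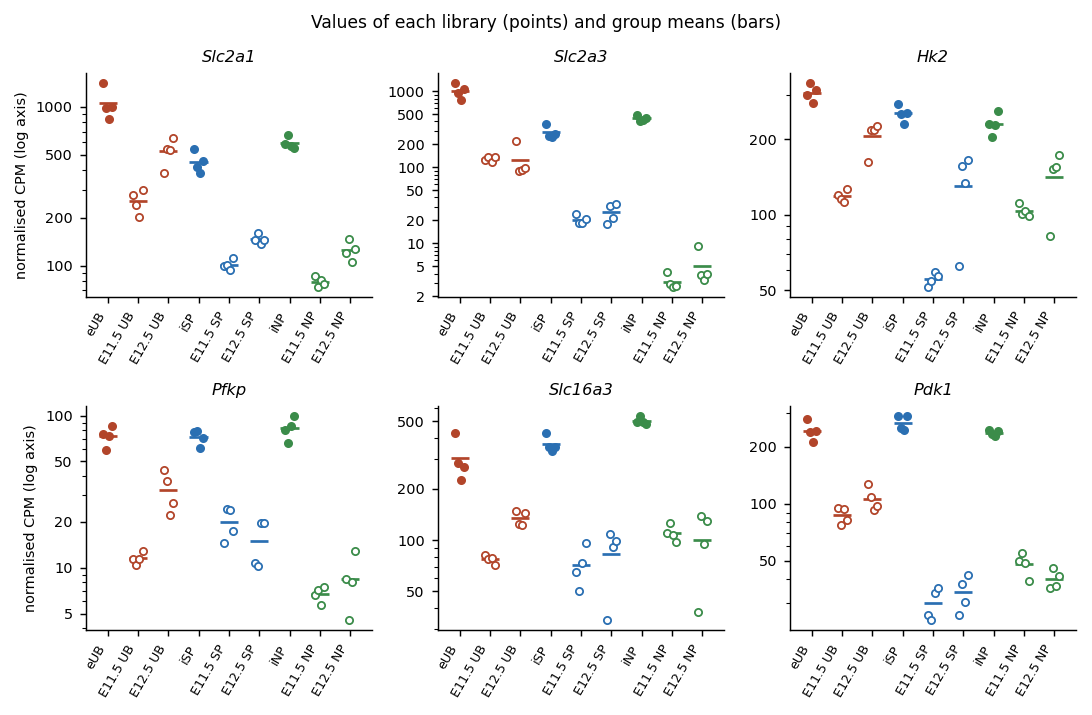
Values of each library (points, normalised CPM on a log axis) and group means (bars) of 6 genes that were called higher in all 3 ES-derived groups, for the 9 groups on the x axis, filled points being ES-derived and open points ex fetu. In every panel the 4 points of eUB, iSP and iNP lie above the 4 points of the E11.5 group of their cell type, and Slc2a3 spans from 2.64 in an E11.5 NP library to 1267 in an eUB library.

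Hexokinase phosphorylates glucose and so keeps it in the cell; Hk2 encodes the inducible form and Hk1 the form found in most tissues. Hk2 measured 302, 334, 278 and 314 in eUB and 121, 116, 113 and 127 in E11.5 UB. It measured 277, 253, 231 and 254 in iSP and 51.5, 54.3, 59.4 and 57.2 in E11.5 SP. It measured 231, 205, 229 and 259.7 in iNP, against 112, 101, 104 and 99.3 in E11.5 NP. The groups of each pair did not overlap. The log2 difference for Hk2 was 1.36 ± 0.075 in eUB (adjusted p = 4.76e-07), 2.17 ± 0.081 in iSP (adjusted p = 7.9e-08) and 1.14 ± 0.094 in iNP (adjusted p = 5.61e-06). Hk1 moved in opposite directions. Its values were 143, 138, 129 and 128 in eUB and 165, 149.8, 173 and 172 in E11.5 UB. They were 124, 117, 116 and 119 in iSP and 48.0, 61.8, 67.6 and 54.3 in E11.5 SP. They were 88.9, 71.8, 79.2 and 84.3 in iNP, against 65.5, 61.2, 60.6 and 49.7 in E11.5 NP. All 4 eUB libraries lay below E11.5 UB, and all iSP and iNP libraries above their counterparts. The difference for Hk1 was -0.29 ± 0.073 in eUB (adjusted p = 0.00636), 1.04 ± 0.11 in iSP (adjusted p = 2.11e-05) and 0.45 ± 0.11 in iNP (adjusted p = 0.00533). The call in eUB was lost under quantile normalisation (log2 difference -0.17, adjusted p = 0.105) and with all 36 libraries in 1 fit (adjusted p = 0.065). Hk2 made up 76.5 ± 1.40% of both hexokinases per kilobase in eUB and 50.8 ± 1.82% in E11.5 UB. Its share was 75.3 ± 0.914% in iSP against 58.0 ± 2.67% in E11.5 SP, and 80.3 ± 1.11% in iNP, against 71.5 ± 1.73% in E11.5 NP.

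Gpi1, which turns glucose 6-phosphate into fructose 6-phosphate, measured 1360.1, 1027, 876 and 1031 in eUB and 541, 508, 525 and 559.7 in E11.5 UB. The iSP values were 1157, 945, 918 and 974 and those of E11.5 SP 273, 281, 305 and 319.7. The iNP values were 965, 928, 888 and 889 and those of E11.5 NP 395, 424, 404 and 345. The ES-derived libraries lay above the ex-fetu libraries in each pair, with a log2 difference of 0.99 ± 0.12 in eUB (adjusted p = 8.11e-05), 1.75 ± 0.10 in iSP (adjusted p = 5.89e-07) and 1.23 ± 0.093 in iNP (adjusted p = 3.43e-06). Phosphofructokinase commits the sugar to glycolysis, and its subunits are named for liver (Pfkl), muscle (Pfkm) and platelets (Pfkp). Pfkl was the most abundant per kilobase in every group. It measured 959.9, 764, 654 and 734 in eUB and 506, 457, 523 and 488 in E11.5 UB. It measured 754, 679, 646 and 670.2 in iSP and 209, 204, 261 and 259 in E11.5 SP. In iNP and E11.5 NP it measured 695, 881, 676 and 691, and 317, 336, 304 and 267. The pairs did not overlap, and iNP replicate 2 stood above the other 3 of its group. The difference for Pfkl was 0.64 ± 0.11 in eUB (adjusted p = 0.000809), 1.56 ± 0.11 in iSP (adjusted p = 1.8e-06) and 1.26 ± 0.12 in iNP (adjusted p = 1.17e-05). Pfkp started from far lower levels. It held 75.7, 59.4, 73.7 and 85.3 in eUB and 11.4, 10.5, 11.3 and 12.9 in E11.5 UB. It held 77.5, 79.1, 61.1 and 71.1 in iSP and 14.5, 24.5, 23.8 and 17.4 in E11.5 SP. It held 80.3, 66.0, 85.9 and 99.0 in iNP, against 6.59, 7.12, 5.67 and 7.42 in E11.5 NP. The pairs did not overlap, and the difference was 2.56 ± 0.12 in eUB (adjusted p = 1.28e-07), 1.82 ± 0.17 in iSP (adjusted p = 1.14e-05) and 3.44 ± 0.14 in iNP (adjusted p = 7.86e-08). Its share of the 3 subunits per kilobase was 3.95 ± 0.778% in eUB and 0.976 ± 0.0880% in E11.5 UB, and 4.34 ± 0.996% in iNP, against 0.818 ± 0.142% in E11.5 NP. In iSP it was 3.77 ± 0.316%, against 2.71 ± 0.651% in E11.5 SP. Pfkm ranged from 59.5 to 66.2 in eUB and 44.0 to 47.6 in E11.5 UB, with log2 differences of 0.46 in eUB, 0.85 in iSP and 0.86 in iNP, all called. Gpi1 shares 741 exonic bases (11.5%) with the antisense gene Gm26762, Pfkp 748 (5.58%) with the antisense gene Pitrm1, and Pfkm 341 (10.2%) with Gm26513 on its own strand. Of the members described below, Pfkfb2 shares 1262 (17.4%) with Gm29427 and Pkm 767 (15.3%) with Gm49759. Both of these overlaps are on the same strand, and neither other gene is among those listed. How such reads were counted is not given in the sources used here.

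Aldolase splits fructose bisphosphate into a pair of 3-carbon sugars. Aldoa, the form of muscle and most embryonic cells, measured 2517, 1778, 1498 and 1681 in eUB and 1162, 1141, 1096 and 1205 in E11.5 UB. The values were 2999, 2332, 2289.8 and 2319 in iSP and 664, 639.6, 759 and 847 in E11.5 SP. The values were 2309, 3166, 2318 and 2215 in iNP, against 850.3, 964, 900.4 and 742 in E11.5 NP. The pairs did not overlap, and the difference was 0.67 ± 0.15 in eUB (adjusted p = 0.00277), 1.77 ± 0.13 in iSP (adjusted p = 2.8e-06) and 1.52 ± 0.14 in iNP (adjusted p = 1.18e-05). Aldoc, the brain form, was far rarer. It measured 76.7, 54.1, 46.2 and 54.6 in eUB and 13.4, 10.97, 12.3 and 11.2 in E11.5 UB. It measured 28.4, 18.3, 17.9 and 21.2 in iSP and 1.84, 1.68, 2.46 and 1.22 in E11.5 SP. It measured 48.4, 64.96, 49.6 and 50.8 in iNP, against 3.51, 4.63, 4.61 and 3.35 in E11.5 NP. Every ES-derived library exceeded its ex-fetu counterparts, and the difference was 2.16 ± 0.14 in eUB (adjusted p = 1.52e-06), 2.997 ± 0.18 in iSP (adjusted p = 8.92e-07) and 3.44 ± 0.14 in iNP (adjusted p = 8.18e-08). Even so, Aldoc made up no more than 2.696 ± 0.0810% of the 2 aldolases per kilobase in any of these 6 groups. Tpi1, which interconverts the 3-carbon sugars, measured 1307, 870.2, 762 and 888 in eUB and 627, 593, 639 and 617 in E11.5 UB. It measured 1459, 1178, 1149 and 1274 in iSP and 284, 274, 399 and 501 in E11.5 SP. It measured 1131, 1479, 1038 and 1075 in iNP, against 369, 415, 364 and 325 in E11.5 NP. Again no pair overlapped, and the difference for Tpi1 was 0.60 ± 0.15 in eUB (adjusted p = 0.00556), 1.83 ± 0.19 in iSP (adjusted p = 2.27e-05) and 1.67 ± 0.13 in iNP (adjusted p = 4.44e-06).

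Glyceraldehyde 3-phosphate dehydrogenase, widely used as a reference gene, is not level between these groups as listed. It measured 2491, 1875, 1713 and 2085 in eUB and 861, 831, 903 and 899.7 in E11.5 UB. It measured 1587, 1310.4, 1389 and 1569 in iSP and 586, 506, 603 and 613 in E11.5 SP. It measured 1703, 1713, 1558 and 1698 in iNP, against 693, 809, 776 and 708 in E11.5 NP. The pairs did not overlap, and the difference was 1.21 ± 0.12 in eUB (adjusted p = 1.41e-05), 1.34 ± 0.10 in iSP (adjusted p = 3.49e-06) and 1.16 ± 0.094 in iNP (adjusted p = 5.3e-06). The table also lists 82 genes whose transcripts are at least 95% identical to Gapdh, and reads of one can be counted on another. Together they held 35.6 to 40.4% of the summed value in the 6 ex-fetu groups and 15.9 to 17.6% in the 3 ES-derived groups. The processed pseudogene Gm13394 (GRCm38, chr2:28933610-28934609), which is 99.9% identical over 1000 bases, alone held 20.4 to 23.8% in the ex-fetu groups and 0.068 to 0.178% in the ES-derived groups. With the copies added to Gapdh, the difference came to 0.73 ± 0.13 in eUB (adjusted p = 0.000857), 0.92 ± 0.11 in iSP (adjusted p = 4.57e-05) and 0.69 ± 0.097 in iNP (adjusted p = 0.00017), over 1.5 times less in eUB and iNP, and was still called in all 3. The size of the Gapdh difference is therefore uncertain.

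Pgk1 makes the first ATP of glycolysis. It measured 546, 361, 306 and 354 in eUB and 261, 240.4, 233 and 259.9 in E11.5 UB. It measured 671, 507, 502 and 529.9 in iSP and 120.0, 96.5, 138 and 165 in E11.5 SP. It measured 546, 847, 554 and 531 in iNP, against 173, 212, 192 and 170.1 in E11.5 NP. The pairs did not overlap, iSP replicate 1 and iNP replicate 2 were the highest of their groups, and the difference was 0.62 ± 0.15 in eUB (adjusted p = 0.0061), 2.10 ± 0.16 in iSP (adjusted p = 4.12e-06) and 1.70 ± 0.16 in iNP (adjusted p = 1.16e-05). Pgam1, the mutase that follows it, measured 194, 126, 98.7 and 122 in eUB and 86.9, 89.8, 98.5 and 89.6 in E11.5 UB. It measured 202, 156, 164 and 181 in iSP and 59.4, 50.1, 72.7 and 92.9 in E11.5 SP. It measured 203, 175, 179 and 193 in iNP, against 70.2, 87.2, 75.4 and 72.8 in E11.5 NP. The ES-derived libraries lay above the others in each pair, with a difference of 0.52 ± 0.17 in eUB (adjusted p = 0.0243), 1.37 ± 0.17 in iSP (adjusted p = 8.97e-05) and 1.29 ± 0.10 in iNP (adjusted p = 3.25e-06). In eUB this call was lost without E11.5 UB replicate 1 (0.50, adjusted p = 0.0614), replicate 2 (0.51, adjusted p = 0.0572) or replicate 4 (0.51, adjusted p = 0.0571).

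Enolase makes phosphoenolpyruvate; Eno1 is the form of most cells, Eno2 that of neurons and Eno3 that of muscle. Eno1 ranged from 769 to 1351 in eUB and 783 to 852 in E11.5 UB, which overlapped, and the difference of 0.25 ± 0.15 (adjusted p = 0.178) was not called, though it was under quantile normalisation (0.34, adjusted p = 0.0148). In iSP it rose by 1.46 ± 0.13 (adjusted p = 7.26e-06) and in iNP by 1.05 ± 0.12 (adjusted p = 4.51e-05). Its 3 copies, mostly Eno1b, held 20.4 to 21.7% of the summed value in all 9 groups. Eno2 measured 22.5, 38.6, 54.8 and 50.6 in eUB and 45.6, 47.4, 38.3 and 49.9 in E11.5 UB. It measured 10.1, 15.7, 12.0 and 11.1 in iSP and 23.0, 31.1, 15.1 and 15.1 in E11.5 SP. It measured 12.8, 12.95, 17.1 and 13.4 in iNP, against 9.70, 6.48, 6.57 and 8.58 in E11.5 NP. The NP groups did not overlap, while the UB and SP groups did. The difference was -0.19 ± 0.24 in eUB (adjusted p = 0.522), -0.70 ± 0.23 in iSP (adjusted p = 0.0225) and 0.78 ± 0.15 in iNP (adjusted p = 0.00145). The fall in iSP was not called without E11.5 SP replicate 1 (-0.64, adjusted p = 0.056), iSP replicate 1 (-0.62, adjusted p = 0.0634) or iSP replicate 4 (-0.66, adjusted p = 0.0575), nor was either call made with all 36 libraries in 1 fit (adjusted p = 0.205 in iSP and 0.156 in iNP). Eno3 measured 28.5, 22.04, 23.1 and 23.4 in eUB and 72.0, 80.7, 73.8 and 67.7 in E11.5 UB. It measured 126, 111, 109.8 and 114.7 in iSP and 74.3, 44.6, 33.4 and 19.6 in E11.5 SP. It measured 163, 225, 164 and 166 in iNP, against 162, 177, 176 and 145 in E11.5 NP. All eUB libraries lay below E11.5 UB, all iSP libraries above E11.5 SP, and the NP groups overlapped. The difference was -1.56 ± 0.10 in eUB (adjusted p = 9.03e-07), 1.56 ± 0.32 in iSP (adjusted p = 0.00183) and 0.11 ± 0.12 in iNP (adjusted p = 0.455). Under quantile normalisation Eno3 was called higher in iNP (0.36, adjusted p = 0.0324). Pkm, pyruvate kinase of muscle and most dividing cells, measured 4169, 3029, 2631 and 2865 in eUB and 2653, 2576, 2521 and 2653 in E11.5 UB. It measured 4294, 3523, 3525 and 3705 in iSP and 1626, 1483, 1697 and 1917 in E11.5 SP. It measured 3460.4, 4340.5, 3363 and 3402 in iNP, against 1936, 2044, 1877 and 1713 in E11.5 NP. The UB groups overlapped and the others did not, with a difference of 0.26 ± 0.14 in eUB (adjusted p = 0.126), 1.16 ± 0.12 in iSP (adjusted p = 2.02e-05) and 0.94 ± 0.12 in iNP (adjusted p = 0.000102). In eUB the Pkm difference was called with all 36 libraries in 1 fit (0.26, adjusted p = 0.0408). Gene-level values do not separate the M1 and M2 splice forms of Pkm.

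**Figure D3:**
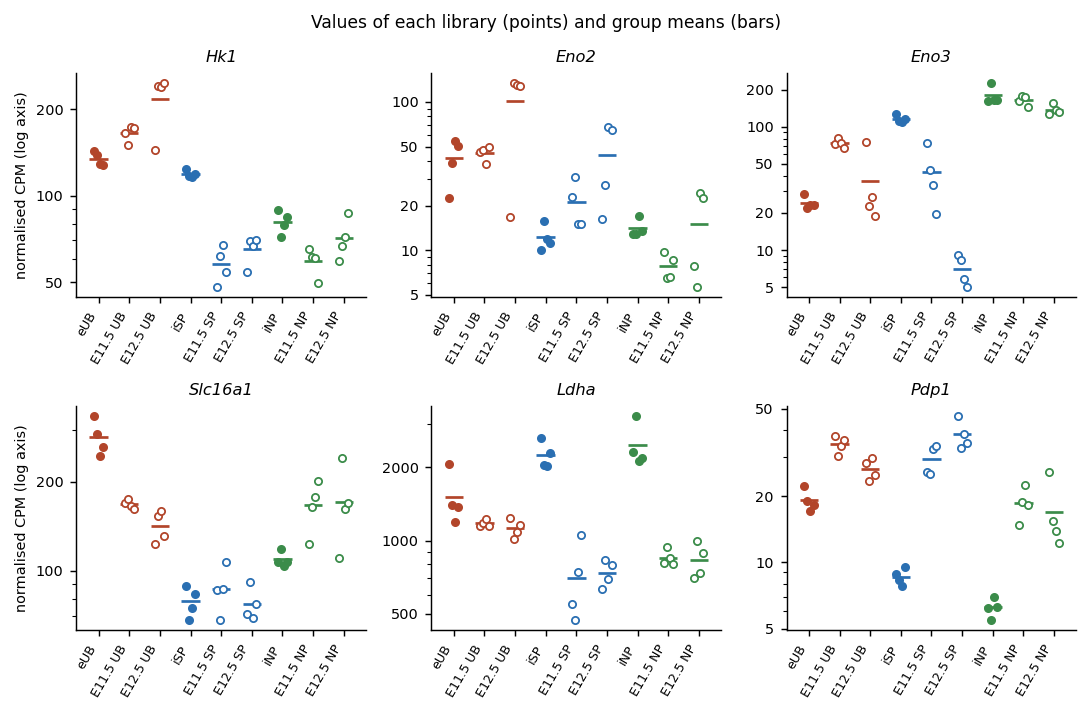
Values of each library (points, normalised CPM on a log axis) and group means (bars) of 6 genes for the 9 groups on the x axis, filled points being ES-derived and open points ex fetu. Hk1, Eno3 and Slc16a1 differ in direction between cell types, Ldha of eUB overlaps E11.5 UB while iSP and iNP lie above their E11.5 groups, and Pdp1 is lower in every ES-derived group.

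Ldha encodes the subunit that favours lactate. It measured 2067, 1403, 1188 and 1371 in eUB and 1153, 1177, 1232 and 1146 in E11.5 UB. It measured 2627, 2038, 2025 and 2284 in iSP and 552, 472, 743 and 1051 in E11.5 SP. It measured 2313, 3242, 2114 and 2191 in iNP, against 809.5, 941, 848 and 798 in E11.5 NP. The eUB and E11.5 UB libraries overlapped, with eUB replicate 1 well above the rest, and the other pairs did not. The difference was 0.33 ± 0.15 in eUB (adjusted p = 0.0891), 1.73 ± 0.23 in iSP (adjusted p = 0.000108) and 1.52 ± 0.15 in iNP (adjusted p = 1.5e-05). In eUB it was not called in this test, but it was without eUB replicate 3 (0.43, adjusted p = 0.029) and under quantile normalisation (0.35, adjusted p = 0.0242). Ldhb, the subunit that favours pyruvate, measured 474, 357, 322 and 352 in eUB and 258, 204, 282 and 251 in E11.5 UB. It measured 305, 252, 269.8 and 285 in iSP and 120.1, 92.1, 121 and 118 in E11.5 SP. It measured 199, 275, 195 and 194 in iNP, against 82.6, 80.1, 101 and 85.1 in E11.5 NP. No pair overlapped, and the difference was 0.59 ± 0.13 in eUB (adjusted p = 0.00375), 1.30 ± 0.11 in iSP (adjusted p = 5.62e-06) and 1.29 ± 0.13 in iNP (adjusted p = 2.42e-05). Its pseudogene Gm5514 held 4.20 to 7.15% of the summed value in the ex-fetu groups and 0.335 to 0.373% in the ES-derived groups. Ldha made up 65.2 ± 1.58% of both subunits per kilobase in eUB and 69.3 ± 2.69% in E11.5 UB, 79.2 ± 0.926% in iSP against 73.7 ± 5.35% in E11.5 SP, and 84.4 ± 0.486% in iNP, against 82.2 ± 2.03% in E11.5 NP. Ldha was the larger share in all 6 groups.

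Slc16a3 encodes MCT4, the exporter of highly glycolytic cells, and Slc16a1 encodes MCT1, which carries lactate in either direction. Slc16a3 measured 429, 285, 226 and 269 in eUB and 81.5, 77.9, 78.8 and 71.1 in E11.5 UB. It measured 426, 355, 334 and 352 in iSP and 64.7, 50.0, 73.9 and 96.7 in E11.5 SP. It measured 497, 535, 492 and 484 in iNP, against 110.0, 127, 107 and 98.2 in E11.5 NP. No pair overlapped, and the difference for Slc16a3 was 1.91 ± 0.17 in eUB (adjusted p = 7.73e-06), 2.38 ± 0.18 in iSP (adjusted p = 3.16e-06) and 2.18 ± 0.10 in iNP (adjusted p = 1.28e-07). Slc16a1 measured 334, 290.5, 245 and 263 in eUB and 170.2, 175, 166 and 162 in E11.5 UB. It measured 88.8, 68.2, 74.4 and 83.6 in iSP and 85.7, 68.0, 86.5 and 107 in E11.5 SP. It measured 107, 118, 104 and 107 in iNP, against 123, 164, 178 and 201 in E11.5 NP. It was higher in every eUB library than in E11.5 UB, lower in every iNP library than in E11.5 NP, and overlapped between the SP groups. The difference for Slc16a1 was 0.74 ± 0.10 in eUB (adjusted p = 0.00011), -0.13 ± 0.14 in iSP (adjusted p = 0.439) and -0.58 ± 0.14 in iNP (adjusted p = 0.00481). The fall in iNP was not called under quantile normalisation (-0.33, adjusted p = 0.0833). MCT4 mRNA made up 46.5 ± 3.60% of both transporters per kilobase in eUB and 27.7 ± 0.898% in E11.5 UB. It made up 79.5 ± 1.48% in iSP against 40.3 ± 2.40% in E11.5 SP, and 79.3 ± 0.401% in iNP, against 36.1 ± 6.12% in E11.5 NP. MCT1 was the larger share in all 3 E11.5 groups, and MCT4 the larger in iSP and iNP. In eUB the order depended on the length scaling: without it the means were 302 for Slc16a3 and 283 for Slc16a1.

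**Figure D4:**
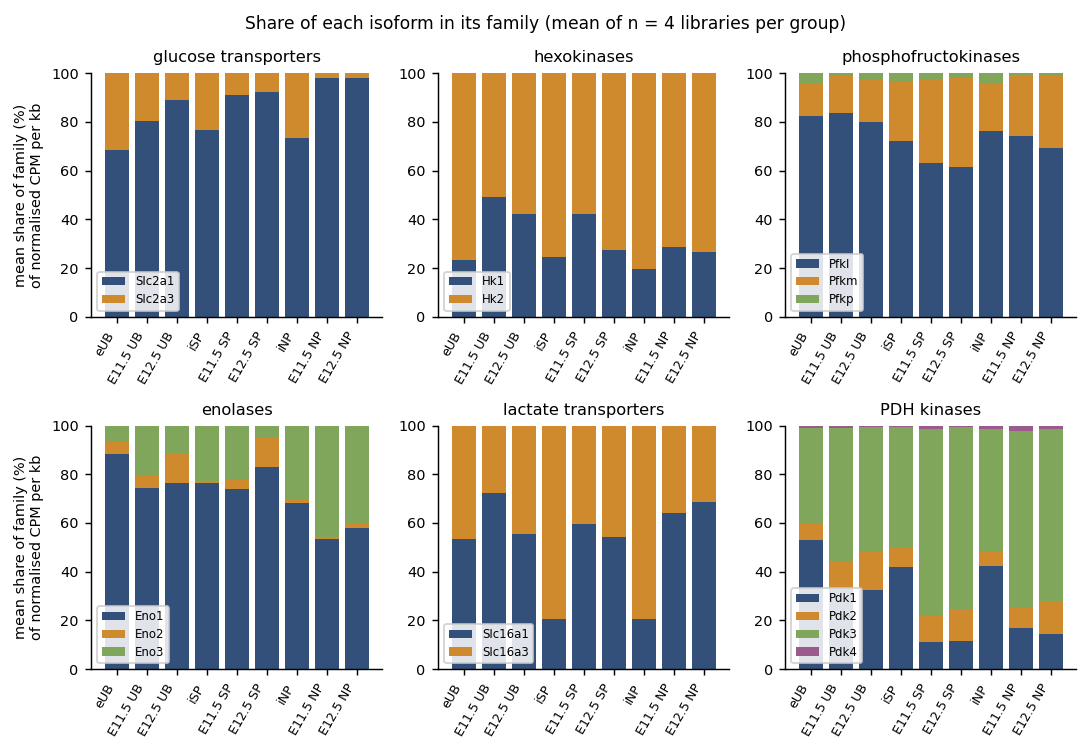
Mean share (%) of each gene in its family, of normalised CPM per kilobase of exon, as stacked bars from 0 to 100 for the 9 groups (4 libraries each). Slc2a3, Hk2, Slc16a3 and Pdk1 take a larger share in eUB, iSP and iNP than in the E11.5 group of the same cell type, for example 79.3% against 36.1% for Slc16a3 in iNP and E11.5 NP.

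The PFKFB enzymes make and break fructose 2,6-bisphosphate, the strongest activator of phosphofructokinase, and Pfkfb3 is the form known to favour its synthesis. Pfkfb3 measured 176, 213, 199 and 228 in eUB and 131, 130.1, 97.5 and 142 in E11.5 UB. It measured 139, 129.8, 116 and 128 in iSP and 91.0, 100.2, 77.2 and 81.8 in E11.5 SP. It measured 95.2, 63.3, 94.0 and 102 in iNP, against 57.5, 52.0, 52.0 and 57.2 in E11.5 NP. The pairs did not overlap, though the gap in NP was small, and the difference was 0.71 ± 0.13 in eUB (adjusted p = 0.000802), 0.55 ± 0.10 in iSP (adjusted p = 0.000772) and 0.66 ± 0.14 in iNP (adjusted p = 0.00263). Pfkfb1, the form of liver and muscle, was low throughout. It measured 13.4, 10.6, 11.3 and 10.98 in eUB and 4.33, 4.94, 7.37 and 4.73 in E11.5 UB. It measured 8.26, 8.02, 8.31 and 8.21 in iSP and 4.70, 3.72, 5.28 and 3.64 in E11.5 SP. It measured 11.5, 10.1, 9.28 and 10.6 in iNP, against 4.60, 4.43, 4.86 and 3.45 in E11.5 NP. These pairs did not overlap either, with a difference of 1.005 ± 0.15 in eUB (adjusted p = 0.000278), 0.80 ± 0.12 in iSP (adjusted p = 0.000298) and 1.10 ± 0.12 in iNP (adjusted p = 4.33e-05). Pfkfb2 and Pfkfb4 went the other way. The differences for Pfkfb2 were -0.10 in eUB, -0.68 in iSP and -0.72 in iNP, called in iSP and iNP, with 4.23 to 5.62 in iNP against 6.95 to 11.1 in E11.5 NP. Those for Pfkfb4 were -0.85 in eUB, -0.11 in iSP and -0.46 in iNP, called in eUB and iNP, and the call in iNP was lost without E11.5 NP replicate 1 (-0.46, adjusted p = 0.0596), replicate 2 (-0.48, adjusted p = 0.0571), replicate 3 (-0.44, adjusted p = 0.0723) or replicate 4 (-0.47, adjusted p = 0.0572), and under upper-quartile scaling (-0.29, adjusted p = 0.105). Tigar, a phosphatase that lowers fructose 2,6-bisphosphate, ranged from 20.4 to 24.6 in eUB and 13.5 to 18.4 in E11.5 UB. Its differences were 0.47 in eUB, 0.20 in iSP and 0.027 in iNP, called in eUB, and under quantile normalisation Tigar was called lower in iNP (-0.30, adjusted p = 0.0447). Bpgm, which makes 2,3-bisphosphoglycerate and is known from red cells, differed by 0.32 in eUB, -0.27 in iSP and -0.0059 in iNP and was called in eUB. That call was lost without E11.5 UB replicate 2 (0.31, adjusted p = 0.0611), E11.5 UB replicate 4 (0.24, adjusted p = 0.0706), eUB replicate 2 (0.33, adjusted p = 0.0515) or eUB replicate 4 (0.31, adjusted p = 0.0593). It was also lost by edgeR (0.29, adjusted p = 0.0503). In iSP the Bpgm difference was called lower without E11.5 SP replicate 2 (-0.36, adjusted p = 0.0316), under quantile normalisation (-0.33, adjusted p = 0.0411), by DESeq2 (-0.34, adjusted p = 0.029) and with the replicate number as block (-0.27, adjusted p = 0.0453). The 5 red blood cell markers summed to at most 0.141 normalised CPM in the ES-derived groups and to 4.97 to 159 in E11.5 SP, and their part in the Bpgm values was not tested.

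Pyruvate dehydrogenase kinases phosphorylate and silence pyruvate dehydrogenase, and the phosphatase encoded by Pdp1 reactivates it. Pdk1 measured 279.8, 238, 212 and 242 in eUB and 95.5, 77.4, 94.1 and 81.7 in E11.5 UB. It measured 290.0, 250.3, 245 and 289 in iSP and 26.0, 24.4, 34.05 and 36.2 in E11.5 SP. It measured 244, 233, 227 and 241 in iNP, against 49.8, 55.0, 48.6 and 39.2 in E11.5 NP. No pair overlapped, and the difference for Pdk1 was 1.47 ± 0.10 in eUB (adjusted p = 2.08e-06), 3.13 ± 0.13 in iSP (adjusted p = 1.62e-07) and 2.28 ± 0.11 in iNP (adjusted p = 1.92e-07). The phosphatase gene Pdp1 was the single member called lower in all 3 comparisons. It measured 22.3, 19.0, 17.1 and 18.2 in eUB and 37.6, 30.4, 33.7 and 35.8 in E11.5 UB. It measured 8.84, 8.35, 7.79 and 9.495 in iSP and 25.6, 25.2, 32.9 and 33.8 in E11.5 SP. It measured 6.19, 5.48, 7.0 and 6.30 in iNP, against 14.8, 18.9, 22.6 and 18.2 in E11.5 NP. Each ES-derived library lay below all ex-fetu libraries of its pair, with a difference of -0.82 ± 0.10 in eUB (adjusted p = 9.01e-05), -1.65 ± 0.12 in iSP (adjusted p = 3.42e-06) and -1.43 ± 0.14 in iNP (adjusted p = 1.58e-05). Pdha1, the catalytic subunit that the kinases act on, rose by 0.62 in eUB, 0.95 in iSP and 0.89 in iNP, all called, though 603 of its exonic bases (16.1%) are shared with the antisense gene Map3k15. Of the other kinases, Pdk2 differed by 0.064 in eUB, 0.73 in iSP and 0.44 in iNP, called in iSP and iNP, though in iNP not under quantile normalisation (0.12, adjusted p = 0.386). Pdk3 differed by 0.33 in eUB, 0.64 in iSP and 0.46 in iNP, all called, and in eUB that call was lost without E11.5 UB replicate 3 (0.31, adjusted p = 0.0574) or eUB replicate 2 (0.33, adjusted p = 0.0533), and under quantile normalisation (0.32, adjusted p = 0.0631). Pdk4 stayed under 4 normalised CPM in all libraries and differed by 0.29 in eUB, -0.41 in iSP and 0.11 in iNP. Its call in iSP was lost without E11.5 SP replicate 1 (-0.35, adjusted p = 0.0841) or replicate 2 (-0.34, adjusted p = 0.0857), or without iSP replicate 1 (-0.39, adjusted p = 0.0818), replicate 3 (-0.41, adjusted p = 0.0733) or replicate 4 (-0.36, adjusted p = 0.0943), and under upper-quartile scaling (-0.33, adjusted p = 0.0677) and with all 36 libraries in 1 fit (-0.41, adjusted p = 0.057). Pdk1 made up 52.9 ± 1.33% of the 4 kinases per kilobase in eUB and 33.2 ± 2.82% in E11.5 UB. In iSP it made up 41.9 ± 1.31%, in E11.5 SP 11.1 ± 0.483%, in iNP 42.2 ± 0.904% and in E11.5 NP 16.9 ± 1.73%. Per kilobase, Pdk3 was the largest of the 4 in every E11.5 group, and Pdk1 took that place in eUB. That order rests on the length scaling. Without it the mean of Pdk1 already exceeded that of Pdk3 in E11.5 UB (87.2 against 47.3). The same held in iSP (269 against 105) and iNP (236 against 93.0).

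Against the E12.5 cells, which share the ES-derived libraries with the comparisons above, fewer members were called in each cell type. Between eUB and E12.5 UB, 17 were called higher and 3 lower, against 23.3% and 21.2% of all genes (44.4% in all), and without E12.5 UB replicate 1 the counts were 19 and 6 of 34 (51.5% of all genes called). Between iSP and E12.5 SP, 25 were called higher and 4 lower, against 33.3% and 28.8% of all genes (62.1% in all), and without replicate 1 again 25 and 4 (69.9% of all genes called). Between iNP and E12.5 NP, 23 were called higher and 3 lower, against 25.6% and 18.7% of all genes (44.3% in all), and without replicate 1, 23 and 2 (43.4% of all genes called). The median member differed by 0.50 in eUB, 1.36 in iSP and 0.93 in iNP, and the median gene by -0.0089, 0.042 and 0.036. Without E12.5 replicate 1 the median member differed by 0.48, 1.37 and 0.92, and the median gene by 0.0011, 0.043 and 0.02. Markers of other cells moved with these comparisons too. The macrophage markers summed to 32.9 to 58.6 in E12.5 UB and 0.223 to 0.429 in eUB, and the red blood cell markers to 42 to 390 in E12.5 SP and at most 0.0483 in iSP. The endothelial markers summed to 5.26 to 22.8 in E12.5 NP and 37.8 to 64.0 in iNP. The NP markers summed to 148 to 281 in E12.5 SP and 292 to 326 in iSP, and the UB markers to 31.9 to 82.9 in E12.5 NP and 91.6 to 122 in iNP. The SP markers were lower in iSP (677 to 786) than in E12.5 SP (1077 to 1804), and the NP markers lower in iNP (521 to 804) than in E12.5 NP (1179 to 2097). The part of these cells was not tested. Pfkfb3 was called in none of the 3: it differed by 0.042 ± 0.23 (adjusted p = 0.897) in eUB, 0.34 ± 0.16 (adjusted p = 0.1) in iSP and 0.37 ± 0.19 (adjusted p = 0.135) in iNP, and without replicate 1 by -0.21, 0.17 and 0.26. Against E12.5 SP it was called higher in iSP under quantile normalisation (0.48, adjusted p = 0.0177), upper-quartile scaling (0.46, adjusted p = 0.0233) and without E12.5 SP replicate 4 (0.45, adjusted p = 0.0432). Against E12.5 NP it was called higher in iNP under quantile normalisation (0.51, adjusted p = 0.0277), upper-quartile scaling (0.52, adjusted p = 0.0261) and without iNP replicate 2 (0.52, adjusted p = 0.0214). Slc2a3 was 3.09 ± 0.29 (adjusted p = 7.13e-05) higher in eUB than in E12.5 UB, and 3.40 ± 0.16 (adjusted p = 1.94e-06) without replicate 1. Eno2 in eUB was not called against E12.5 UB, at -0.98 ± 0.64 (adjusted p = 0.241), and was called lower without replicate 1, at -1.70 ± 0.27 (adjusted p = 0.00104). Eno3, called lower in eUB against E11.5 UB, differed from E12.5 UB by -0.34 ± 0.37 (adjusted p = 0.49), and by 0.089 ± 0.14 (adjusted p = 0.61) without replicate 1. Pdk2 was called lower in eUB than in E12.5 UB, at -0.72 ± 0.16 (adjusted p = 0.00698), and at -0.86 ± 0.12 (adjusted p = 0.000641) without replicate 1.

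Fewer members differed between the ages of the ex-fetu cells. In UB 7 members were called higher and 3 lower of 33 tested, against 14.2% and 12.3% of all genes (26.5% in all). In SP 2 were called higher and 3 lower (3.73% and 4.8% of all genes, 8.52% in all), and in NP 2 higher and 1 lower (2.74% and 3.59%, 6.34% in all). The median member differed by 0.093 in UB, 0.075 in SP and 0.0044 in NP, and the median gene by 0.032, -0.00052 and 0.019. Without E12.5 replicate 1 the median member differed by 0.092, 0.10 and 0.087, and the median gene by 0.033, 0.012 and 0.039. Markers of other cells moved with age in SP: those of UB summed to 123 to 289 in E11.5 SP and 85.3 to 122 in E12.5 SP, and those of red blood cells to 4.97 to 159 and 42 to 390. With all libraries, limma called 3 of the 6 NP markers lower at E12.5 in SP and 0 higher (median -1.33). Their sums overlapped, at 217 to 267 and 148 to 281. No count of these markers was made without replicate 1. The part of such cells in the SP differences was not tested. Slc2a1 rose in all 3: by 1.03 ± 0.16 (adjusted p = 0.00266) in UB, by 0.53 ± 0.11 (adjusted p = 0.0182) in SP and by 0.64 ± 0.12 (adjusted p = 0.0167) in NP, and by 1.17 ± 0.11 (adjusted p = 7.48e-06), 0.53 ± 0.10 (adjusted p = 0.00933) and 0.66 ± 0.12 (adjusted p = 0.01) without E12.5 replicate 1. Its E12.5 values were 384, 541, 535 and 641 in UB, 144, 161, 137 and 145 in SP and 120.1, 147, 106 and 127 in NP, all above the E11.5 libraries of the same cell type. In UB, Pfkp measured 44.2, 37.2, 22.3 and 26.5 at E12.5, a difference of 1.37 ± 0.19 (adjusted p = 0.00162), and of 1.21 ± 0.14 (adjusted p = 3.66e-05) without replicate 1. Hk2 was the largest rise in SP, to 62.8, 157, 134 and 166 at E12.5, a difference of 1.12 ± 0.27 (adjusted p = 0.0338), and with replicate 1 left out of 1.43 ± 0.11 (adjusted p = 0.000295). Replicate 1 was the lowest of its 4 and lay close to the E11.5 libraries. Eno3 fell in SP to 9.05, 8.37, 5.79 and 5.001, a difference of -2.33 ± 0.35 (adjusted p = 0.00655), and of -2.44 ± 0.39 (adjusted p = 0.00381) without replicate 1. In UB it measured 75.9, 23.0, 26.7 and 18.9 at E12.5, where replicate 1 sat among the E11.5 libraries, a difference of -1.23 ± 0.35 (adjusted p = 0.0315) and of -1.65 ± 0.10 (adjusted p = 2.22e-07) without it. Pfkfb4 fell, with a difference of -0.60 ± 0.12 (adjusted p = 0.00753) in UB and of -0.53 ± 0.12 (adjusted p = 0.0354) in NP, and without replicate 1 of -0.51 and -0.50. The fall of Pfkfb1 in SP was -0.58 ± 0.16 (adjusted p = 0.0492), and the rise of Pdk2 in NP was 0.56 ± 0.12 (adjusted p = 0.0317). Without replicate 1 these were -0.65 ± 0.15 (adjusted p = 0.0195) and 0.62 ± 0.12 (adjusted p = 0.0109).

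Replicate 1 of the E12.5 groups weighed heavily on these counts. Hk1, Hk2, Pfkfb3 and Tigar were at their lowest in replicate 1 in all 3 E12.5 groups, and Pdk4 and Pfkfb1 at their highest. Without replicate 1, the members called between ages numbered 21 in UB (12 higher, 9 lower, 44.0% of all genes called), 7 in SP (3 higher, 4 lower, 21.5%) and 9 in NP (6 higher, 3 lower, 17.0%). Eno2 in UB then rose by 1.51 ± 0.081 (adjusted p = 8.7e-08), from 45.6, 47.4, 38.3 and 49.9 at E11.5, where the E12.5 libraries held 16.7, 133, 131 and 127. Hk1 in UB rose by 0.55 ± 0.059 (adjusted p = 1.53e-05) and Pfkfb3 by 0.92 ± 0.11 (adjusted p = 3.78e-05), while with replicate 1 in the fit they differed by 0.37 ± 0.16 (adjusted p = 0.123) and 0.66 ± 0.24 (adjusted p = 0.0645). With replicate 1 in the fit, Hk1 was called under quantile normalisation (adjusted p = 0.0464), and Pfkfb3 under quantile normalisation, upper-quartile scaling, all 36 libraries in 1 fit, edgeR and DESeq2 (adjusted p 0.00621 to 0.0461). Slc2a3 in UB, at 222, 89.2, 91.3 and 98.2 at E12.5, differed from E11.5 by -0.14 ± 0.26 (adjusted p = 0.72) with all libraries and by -0.45 ± 0.066 (adjusted p = 0.000158) without replicate 1. Most calls between ages also hung on single other libraries. Left out in turn, E11.5 UB replicates 1 and 4 and E12.5 UB replicate 4 each left 6 members called in UB, and the call of Eno3 was lost without any 1 of the other 7 UB libraries (adjusted p 0.0669 to 0.084) and by edgeR (0.083) and DESeq2 (0.0803). In SP, leaving out E11.5 replicates 1 or 3 or E12.5 replicates 2 or 4 left 1 member called, and leaving out E11.5 replicate 2 or E12.5 replicate 3 left 2. The SP calls of Hk2 (adjusted p 0.0855 to 0.113) and Pfkfb1 (0.0827 to 0.148) were lost in each of these 6 cases, and that of Slc2a1 (0.0552 to 0.0774) in all but that without E12.5 replicate 3. The SP call of Hk2 was also lost without a filter (0.0513), and that of Pfkfb1 under 6 other settings (0.0531 to 0.111). With the replicate number as block, limma also lost the SP call of Slc2a1 (adjusted p = 0.0734) and the NP call of Pfkfb4 (0.0542). In NP, leaving out E11.5 replicate 1 left 1 call, leaving out E11.5 replicate 2, 3 or 4 or E12.5 replicate 4 left 0 by limma (7 to 11 members at an unadjusted p under 0.05), and without E12.5 replicate 3 Pdk2 was not called (adjusted p = 0.0866). Those 5 fits put Pfkfb4 at adjusted p 0.0803 to 0.124 and Pdk2 at 0.0632 to 0.116, and the 4 that left 0 put Slc2a1 at 0.0505 to 0.0706. The 2 label fields for the age of UB contradict each other, so the direction of the UB age differences rests on the titles, and with the ages exchanged every one of them would have the opposite sign.

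**Figure D5:**
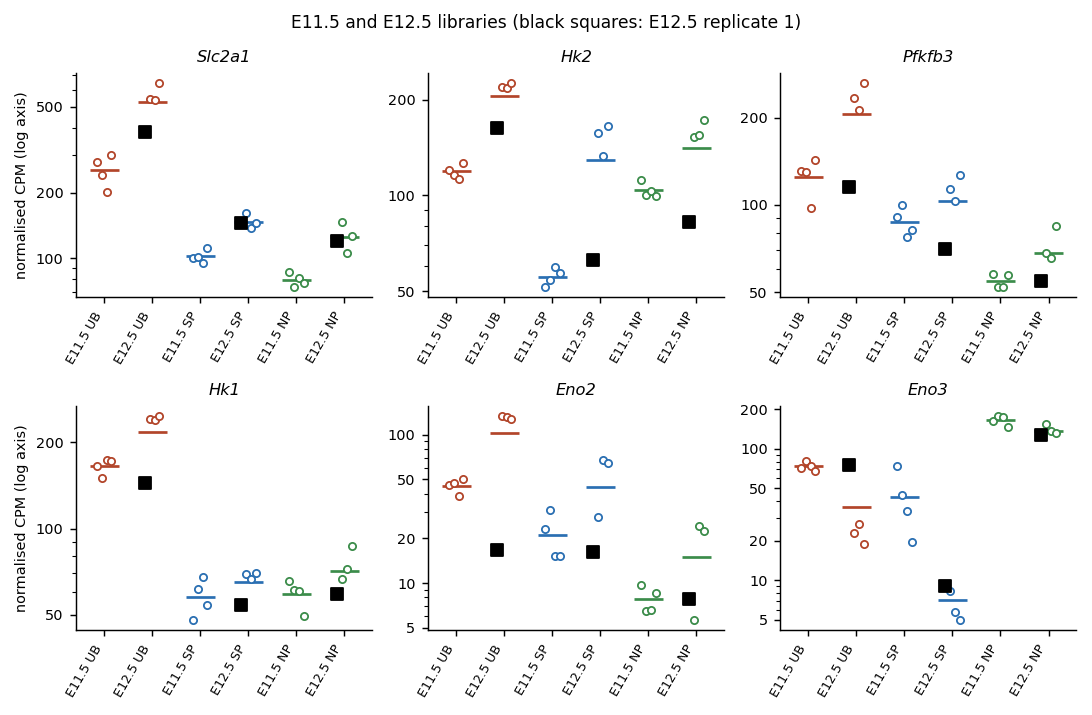
Values of each ex-fetu library (open points, normalised CPM on a log axis) and group means (bars) of 6 genes at E11.5 and E12.5, with black squares for E12.5 replicate 1. For Eno2 in UB the black square lies at 16.7 and the other 3 E12.5 libraries at 127 to 133, and for Eno3 in UB it lies at 75.9 and the others at 18.9 to 26.7.

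Cell types differed among the ex-fetu cells. At E11.5, 25 members were called higher and 4 lower in UB than in NP (28.7% and 31.5% of all genes, 60.2% in all), and 25 higher and 3 lower in UB than in SP (26.8% and 26.7%, 53.6% in all). These comparisons share the E11.5 UB libraries. The median member was 0.46 higher in UB than in NP and 0.81 higher than in SP, and the median gene differed by -0.026 and 0.0062. The macrophage markers summed to 41.5 to 69.3 in E11.5 UB, 0.156 to 0.581 in E11.5 NP and 0.832 to 1.35 in E11.5 SP, and their part in the UB differences was not tested. For UB minus NP, Slc2a3 (4.99 ± 0.11, adjusted p = 4.18e-12) and Eno2 (2.40 ± 0.13, adjusted p = 9.81e-09) were highest in UB, and Eno3 (-1.15 ± 0.078, adjusted p = 7.33e-08) and Pdk4 (-0.89 ± 0.16, adjusted p = 0.000478) highest in NP. For UB minus SP, Slc2a3 (2.60 ± 0.11, adjusted p = 2.18e-08) and Aldoc (2.23 ± 0.15, adjusted p = 6.53e-07) were highest in UB, and Pfkp (-0.72 ± 0.17, adjusted p = 0.00425) and Pdk3 (-0.49 ± 0.12, adjusted p = 0.00616) highest in SP. Between NP and SP, 13 members were called higher and 8 lower (21% and 22.2% of all genes, 43.1% in all), with a median member difference of 0.22. Eno3 (2.07 ± 0.32, adjusted p = 0.000682) and Slc16a1 (0.93 ± 0.17, adjusted p = 0.00188) stood highest in NP, and Slc2a3 (-2.39 ± 0.15, adjusted p = 2.25e-06) and Pfkp (-1.43 ± 0.17, adjusted p = 0.000156) highest in SP. Between iNP and iSP, 9 were called higher and 6 lower (16.5% and 14.2% of all genes, 30.7% in all), with a median of 0.094. Aldoc (1.29 ± 0.16, adjusted p = 0.000184) and Pdk4 (1.03 ± 0.12, adjusted p = 0.000141) were highest in iNP, and Pfkfb3 (-0.55 ± 0.14, adjusted p = 0.0168) and Hk1 (-0.55 ± 0.083, adjusted p = 0.00074) highest in iSP. The Pfkfb3 call was lost without iSP replicate 1 (-0.51, adjusted p = 0.051). Slc2a3 differed by 0.63 ± 0.13 between iNP and iSP (adjusted p = 0.00468).

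Whether the ES-derived cells departed from E11.5 cells by the same amount in each cell type was tested as a difference of differences, over 16 libraries. The NP difference minus the SP difference was called above 0 for 4 members and below 0 for 5 (17.4% and 11.9% of all genes, 29.3% in all). Slc2a3 rose more in NP, by 3.02 ± 0.19 (adjusted p = 1.28e-08), as did Pfkp, by 1.61 ± 0.23 (adjusted p = 4.3e-05). Hk2 and Pdk1 rose more in SP, the NP difference minus the SP difference being -1.03 ± 0.12 (adjusted p = 7.5e-06) for Hk2 and -0.85 ± 0.18 (adjusted p = 0.00163) for Pdk1. The UB difference minus the NP difference was called above 0 for 3 members and below 0 for 18 (22.3% and 24.9% of all genes, 47.1% in all), and the UB difference minus the SP difference above 0 for 5 and below 0 for 19 (24.2% and 23.3%, 47.4% in all). The sign is that of the subtraction: Pdp1 is above 0 as it fell less in UB, and Eno3 below 0 as it fell in UB and did not in NP or SP. These tests share the UB libraries, and the eUB line also differs from that of iNP and iSP. Of the enzymes of the lower pathway, Ldha was at -1.19 ± 0.22 against NP (adjusted p = 0.000304) and Pgk1 at -1.47 ± 0.24 against SP (adjusted p = 9.93e-05). Slc16a1 was above 0 in both, at 1.32 ± 0.18 (adjusted p = 1.37e-05) and 0.87 ± 0.17 (adjusted p = 0.000691).

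Related genes were counted to place the 34 in their pathway. The lists were chosen by function, but with earlier results of these data known. Values are against the E11.5 cells unless E12.5 is named. Their counts are to be read against the shares of all genes called higher (32.1% in eUB, 35.5% in iSP and 35.5% in iNP) and lower (28.5%, 32.1% and 29.2%), and no list was tested against these shares. As shares of the list, the HIF targets called higher were 75%, 83.3% and 91.7%, and those called lower 0%, 0% and 8.33%. Of the tricarboxylic acid cycle genes, 0%, 35.3% and 11.8% were called higher, and 29.4%, 5.88% and 17.6% lower. In both directions the shares of the cycle genes lay near or below those of all genes. Of 12 HIF targets outside glycolysis, 9 were called higher in eUB, 10 in iSP and 11 in iNP, and 1, Mxi1 (-0.66), was called lower in iNP. By limma, edgeR and DESeq2 alike, 0 were called lower in eUB or iSP, with 0 at an unadjusted p under 0.05. Their medians were 1.58, 1.59 and 1.24. Against the E12.5 cells the medians were lower, at 0.71, 0.87 and 1.16, and at 0.69, 0.75 and 0.90 without E12.5 replicate 1. There 7 were called higher in eUB, 9 in iSP and 9 in iNP, with or without that replicate, beside 23.3%, 33.3% and 25.6% of all genes with all libraries. Called lower were Vegfa and Mxi1 in eUB and Mxi1 in iNP, and Ndrg1 in iSP without replicate 1 alone, all named after their values were seen. Between the ages of UB, by the titles, 9 of 11 tested were called higher at E12.5, against 14.2% of all genes, with a median of 0.71. Without replicate 1 it was again 9, with a median of 0.71 and 1, Adm, called lower. Between the ages of SP, 1 of 11 was called higher (3.73% of all genes, median 0.33). Between those of NP it was 1 of 11 (2.74%, median 0.17). Without replicate 1 these were 5 in SP (10.7%, median 0.42) and 2 in NP (8.97%, median 0.15), with 1 called lower in NP. Car9, a carbonic anhydrase of acid-producing cells, rose by 3.43 ± 0.19 in eUB (adjusted p = 4.45e-07), 4.01 ± 0.21 in iSP (adjusted p = 4.21e-07) and 3.25 ± 0.12 in iNP (adjusted p = 4.9e-08). Bnip3, a mitophagy receptor, rose by 2.68 ± 0.14 in eUB (adjusted p = 3.07e-07), 3.37 ± 0.16 in iSP (adjusted p = 2.33e-07) and 3.35 ± 0.11 in iNP (adjusted p = 2.71e-08). Ankrd37, a small ankyrin repeat gene, rose by 2.25 ± 0.11 in eUB (adjusted p = 1.83e-07), 2.36 ± 0.15 in iSP (adjusted p = 1.33e-06) and 2.57 ± 0.19 in iNP (adjusted p = 2.65e-06). Ero1l, which forms disulphide bonds in the endoplasmic reticulum, rose by 2.44 ± 0.11 in eUB (adjusted p = 1.21e-07), 1.65 ± 0.16 in iSP (adjusted p = 1.37e-05) and 1.60 ± 0.20 in iNP (adjusted p = 9.3e-05), and the collagen prolyl hydroxylase subunit P4ha1 by 1.28 ± 0.11 in eUB (adjusted p = 8.1e-06), 1.52 ± 0.17 in iSP (adjusted p = 3.63e-05) and 1.62 ± 0.076 in iNP (adjusted p = 1.9e-07). Of 17 regulators, Egln3, an oxygen-dependent hydroxylase that marks HIF for removal, rose by 2.29 ± 0.13 in eUB (adjusted p = 4.52e-07), 3.65 ± 0.20 in iSP (adjusted p = 4.77e-07) and 4.79 ± 0.10 in iNP (adjusted p = 1.42e-09). The regulators split, with 7 called higher and 8 lower in eUB, 7 and 6 in iSP and 5 and 7 in iNP, and the HIF subunit gene Hif1a was called lower in all 3 (-0.30, -0.51 and -0.68). Of 17 genes of the tricarboxylic acid cycle, 0 were called higher and 5 lower in eUB, 6 and 1 in iSP, and 2 and 3 in iNP, with medians of -0.12, 0.18 and 0.085. For the 0 called higher in eUB by limma, 1 had an unadjusted p under 0.05, and edgeR and DESeq2 also called 0. Of 8 pentose phosphate genes, 4 were called higher and 2 lower in eUB, 5 and 0 in iSP and 6 and 0 in iNP, and G6pdx, the entry enzyme, rose by 0.49, 1.05 and 1.06. For the counts of 0 called lower by limma, 1 gene in iSP and 0 in iNP had an unadjusted p under 0.05, and edgeR and DESeq2 called 1 lower in iSP and 0 in iNP. Of the glycogen genes, 6 of 9 tested were called higher and 3 lower in eUB, 3 and 4 of 10 in iSP and 4 and 5 of 10 in iNP, with glycogen synthase Gys1 higher in all 3 (0.99, 1.91 and 1.82). Of 8 genes of pyruvate entry and oxidation, 3 were called higher and 2 lower in eUB, 2 and 2 in iSP and 1 and 2 in iNP, and Pdhb, the partner subunit of Pdha1, was called lower in all 3 (-0.58, -0.64 and -0.66). Among other isoenzymes and transporters, 4 were called higher and 5 lower of 10 tested in eUB, 6 and 1 of 9 in iSP and 5 and 1 of 9 in iNP. The transporter gene Slc2a6 rose by 1.17 ± 0.16 in eUB (adjusted p = 0.00015), 1.56 ± 0.12 in iSP (adjusted p = 4.54e-06) and 1.68 ± 0.12 in iNP (adjusted p = 2.67e-06), and Bsg, the chaperone of both lactate transporters, by 0.56, 0.89 and 1.15. Of 4 gluconeogenesis genes tested, 1, 2 and 2 were called higher and 2, 0 and 1 lower, and of 3 genes of the glycerol phosphate shuttle, 2, 1 and 0 higher and 1, 1 and 2 lower. Both counts of 0 came from limma, and edgeR and DESeq2 gave 0 for them too, as did limma at an unadjusted p under 0.05.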

How the data were processed

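Sorted cells were profiled by RNA sequencing. The authors trimmed reads with Cutadapt, mapped them with STAR and normalised them with edgeR. Their notes name GRCh38, though the gene identifiers are those of mouse; the counting program, its use of strand and the annotation release are not given in the sources used here. The deposited signal is normalised CPM per gene, read counts scaled to the library size and by the authors' edgeR factors. Whole reads were recovered from it for 100% of values (tolerance 0.01 reads). A second deposited table adds the authors' group means, log2 fold changes, p-values and FDR, which were not used. No per-sample column was left unmapped.

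Values were tested as log2(value + 1) with limma 3.58.1 in R 4.3.3 (lmFit, eBayes with a trend) over genes at or above 1 in at least 4 libraries of the fit, with Benjamini-Hochberg adjustment over all genes tested and calls at adjusted p under 0.05. The log2 differences understate changes of low genes. Each comparison used the 8 libraries of its groups, and each difference of differences 16. Alternatives were quantile and upper-quartile scaling, a pseudocount of 0.1, a filter on a mean of 0.1, no filter, all 36 libraries in 1 fit, edgeR 4.0.16 and DESeq2 1.42.0 on recovered reads, replicate number as a block, near-identical copies added, isoform shares without length scaling, and each library left out. The scripts were tested on simulated data.

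The 34 genes and the lists were chosen with earlier results of these data known. Values of every library are given for genes called the same way in all 3 comparisons with E11.5 with a log2 difference of at least 1 in size in 1 of them, for genes called in opposite directions, and for Slc2a1, Slc2a3, Hk2, Pfkfb3, Ldha and Pkm. Between ages and cell types, the 2 called genes with the largest difference each way are named. Related genes are named where called the same way in all 3 with at least 1 in size in each. Some others were named after their values were seen: Mxi1, Hif1a and the other regulators called the same way in all 3, G6pdx, Gys1, Pdhb and Bsg, and genes that show the weight of E12.5 replicate 1. Exonic lengths came from GENCODE vM21 (GRCm38), with a gene model for 22649 of 22761 genes (99.5%), and copies from BLAST 2.17.0 (at least 95% identity over 200 bases and 50% of the copy). Promoter windows are RefSeq's (GRCm38.p6), for 32 of the 34 genes; Slc2a3 and Pdp1 have none in the table. Pc is listed as Pcx, and Slc2a2, Pgk2 and G6pc were not analysed here.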

Additional observations from a re-analysis of the deposited data

Results flagged for a closer look

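Among the 24 genes given with the values of every library, 216 combinations of a gene and a group were searched for a library far from the other 3 of its group, by Dixon's test, which flags about 1 in 20 groups by chance. It marked 21, of which 9 were in iNP and 7 in E12.5 UB. E12.5 UB replicate 1 held 221.7 normalised CPM of Slc2a3, where the others held 89.2 to 98.2. It held 17.56 of Aldoc, where the others held 6.72 to 8.50, and 75.89 of Eno3, where the others held 18.9 to 26.7. It was the lowest of its group for Hk1 (143.8 against 239 to 246), for Hk2 (162.7 against 218 to 225) and for Eno2 (16.74 against 127 to 133). This is the library whose markers of NP, SP, endothelium and pluripotent cells were high and whose UB markers were low, and their part in these values was not tested. E12.5 UB replicate 2 was the lowest for Pkm, at 2267 against 2417 to 2442.

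Most of the iNP values belonged to replicate 2, which was the highest of its group for Pfkl (881.2 against 676 to 695), Aldoa (3166 against 2215 to 2318) and Aldoc (64.96 against 48.4 to 50.8). It was also the highest for Pgk1 (846.8 against 531 to 554), Eno3 (224.6 against 163 to 166), Pkm (4340 against 3363 to 3460) and Ldhb (275.3 against 194 to 199). Its NP markers summed to 521, against 708 to 804 in the others of its group. Its UB markers summed to 122, against 91.6 to 93.7. The part of other cells in these values was not tested. Replicate 3 of iNP was the lowest for Gapdh (1558 against 1698 to 1713) and the highest for Eno2 (17.08 against 12.8 to 13.4). In iSP, replicate 1 was the highest for Aldoa (2999 against 2289.8 to 2332) and Pgk1 (671.0 against 502 to 529.9). In E12.5 NP, replicate 1 held 9.11 of Slc2a3, where the others held 3.24 to 3.99, and replicate 2 held 424.7 of Gpi1, where the others held 385 to 388. E11.5 SP replicate 2 held 92.05 of Ldhb, where the others held 118 to 121.

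The log2 difference from E11.5 cells was itself called different between cell types for some of the 24 genes (limma over 16 libraries, adjusted p under 0.05). Of all 34 members, 9 were called for iNP minus iSP, 21 for eUB minus iNP and 24 for eUB minus iSP. The shares of all genes called were 29.3%, 47.1% and 47.4%. The 24 genes were picked partly from these same comparisons with E11.5. Hk1, Eno2, Eno3 and Slc16a1 were picked for opposite directions, so a difference for them was favoured by that choice. For iNP minus iSP the value was 3.02 for Slc2a3, 1.61 for Pfkp, 1.47 for Eno2 and 0.76 for Slc2a1, and so above 0. It was -1.45 for Eno3, -1.03 for Hk2, -0.85 for Pdk1, -0.59 for Hk1 and -0.53 for Gpi1, and so below 0.

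For eUB minus iNP the value was above 0 for Slc16a1 (1.32) and Pdp1 (0.61). Below 0 were the glucose transporters Slc2a3 (-3.81) and Slc2a1 (-0.85), and the enzymes of the upper pathway Hk1 (-0.74), Pfkp (-0.87), Pfkl (-0.62), Aldoc (-1.28), Aldoa (-0.85) and Tpi1 (-1.07). Of the lower pathway, the value was -1.08 for Pgk1, -0.77 for Pgam1, -0.97 for Eno2, -1.67 for Eno3, -0.67 for Pkm, -1.19 for Ldha, -0.70 for Ldhb and -0.82 for Pdk1.

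For eUB minus iSP it was above 0 for Slc16a1 (0.87), Pdp1 (0.83) and Pfkp (0.74). It was below 0 for Slc2a3 (-0.80), Hk1 (-1.33), Hk2 (-0.81), Gpi1 (-0.76), Pfkl (-0.92), Aldoa (-1.10), Aldoc (-0.84) and Tpi1 (-1.23). Of the lower pathway it was -1.47 for Pgk1, -0.85 for Pgam1, -3.12 for Eno3, -0.90 for Pkm, -1.41 for Ldha, -0.71 for Ldhb and -1.66 for Pdk1. Pfkp was thus above 0 against iSP and below 0 against iNP.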

How the results depend on the processing

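The 543 member differences were recomputed under 10 other settings and with each library left out in turn. Quantile normalisation lost 13 calls and gained 26, all 36 libraries in 1 fit lost 22 and gained 11, upper-quartile scaling lost 10 and gained 13, DESeq2 lost 1 and gained 16, edgeR lost 6 and gained 6, and no filter lost 13. With near-identical copies added to the members, no call was lost, gained or reversed. One direction was reversed in a call: Tigar in iNP against E11.5 NP, 0.03 and not called, was -0.30 (adjusted p = 0.0447) under quantile normalisation, and the cause was not tested. Among 10586 alternative values, 167 changed sign while called in neither setting. The number of members called between ages moved most. For SP it was 5, and 3 without a filter on low values. For NP it was 3, and 5 under quantile normalisation, 1 without a filter, 5 with all 36 libraries in 1 fit and 8 by DESeq2. Leaving out 1 library gave 6 to 21 in UB, 1 to 7 in SP and 0 to 9 in NP, the 0 being limma calls with 7 to 11 members at an unadjusted p under 0.05. In the other 13 tests these counts stayed within 1.5 times the count with all libraries. Without scaling by exonic length, isoform shares moved by over 1 SD in 170 of 216 cases. Upper-quartile scaling raised the median of all genes by 0.128 in iSP and 0.173 in iNP against E11.5, by 0.11 and 0.139 against E12.5, and lowered it by 0.128 for eUB minus iNP.

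Replicate numbers did not pair the libraries: in no comparison did every same-numbered pair of deviations correlate above 0.1, and at most 3 of 4 libraries correlated best with their own number. Blocking on the replicate number gave counts of 27, 31 and 30 for eUB, iSP and iNP against E11.5, and of 2 between the ages of SP in place of 5. Over the 543 member differences the block lost 11 calls and gained 5. Those lost included the limma calls between ages of Slc2a1 (0.53, adjusted p = 0.0734), Ldhb (-0.51, adjusted p = 0.0997) and Pfkfb1 (-0.58, adjusted p = 0.111) in SP and of Pfkfb4 (-0.53, adjusted p = 0.0542) in NP. The counts against E11.5 stayed within 1.5 times the count without the block.

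Of the counts of related genes against the E11.5 cells, those that moved by over 1.5 times with the tool were few. In iNP, DESeq2 called 5 genes of the tricarboxylic acid cycle lower, where limma called 3, and 0 of pyruvate entry higher, where limma called 1. In eUB, edgeR and DESeq2 each called 1 gene of the glycerol phosphate shuttle higher, where limma called 2, and edgeR called 0 lower, where limma called 1. In iSP both called 1 pentose phosphate gene lower, where limma called 0.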
